A study of Mus musculus with 5 samples.

Results

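The HoxA cluster on mouse chromosome 6 and its neighbour *Skap2* were examined for sites bound by *Paupar*, a long non-coding RNA transcribed upstream of *Pax6*. The genes were *Skap2*, *Hoxa2*, *Hoxa3*, *Hoxa4*, *Hoxa5*, *Hoxa7*, *Hoxa9*, *Hoxa10* and *Hoxa13*, 9 of the protein-coding genes of the annotation, and the peaks were all those on chromosome 6 with a midpoint between 51.5 and 52.6 Mb of mm9. Only 2 of the 2849 peaks of the deposited list met this rule, and both lay in the intergenic sequence between *Skap2* and the HoxA cluster. Both were wide and had high scores, no peak lay inside the cluster, and a tandem repeat of 28 bp filled the space between them. Stretches without a peak are common, as 47.6% of windows of 1.1 Mb over the genome held 0 peaks. Among windows with a GC content within 1 percentage point of that of the HoxA and *Skap2* window, 26.4% held 0.

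The peaks come from CHART-Seq, which uses biotinylated oligonucleotides complementary to an RNA to recover it from fixed chromatin and sequences the DNA recovered with it. All libraries were made from N2A, a mouse neuroblastoma cell line, with no treatment: 2 from *Paupar* pull-downs, 2 from control pull-downs with an oligonucleotide of the bacterial *LacZ* sequence, and 1 from input DNA. The authors joined these into 1 list of peaks, so a peak has a position and a score but no value per library, no replicate error and no known read depth. The values below are therefore a description, and no test over samples was possible.

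Hox genes encode homeodomain transcription factors that give the cells of an embryo their position along the body axis. In each cluster the genes are transcribed in the same direction, and their order on the chromosome follows the order of their expression from head to tail. The anterior end of the HoxA cluster, where *Hoxa2* patterns the hindbrain and *Hoxa3* the pharyngeal arches, faces *Skap2*, and the posterior end, with *Hoxa13* of the digits and genital tract, faces *Evx1*. *Skap2* encodes an adaptor protein of adhesion signalling, best known from immune cells, and is transcribed away from the cluster. Retinoic acid switches on the anterior genes early, and PBX and other homeodomain proteins bind DNA together with HOX proteins.

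The narrower peak lay at chr6:52019093-52020266 of mm9. It was 1174 bp wide, with a score of 33.03 that ranked 211 among the 2849 peaks, and 13.1% of all peaks were as wide or wider. The wider peak lay at chr6:52020627-52023133, was 2507 bp wide and had a score of 74.66. It ranked 26 by score and 81 by width in the whole list, and 2 by score among the 178 peaks of chromosome 6. Only 18 peaks of the list, itself included, were at least as wide and had at least as high a score. The median peak of the list was 556 bp wide with a score of 12.69, and the median score of the 506 peaks over 1 kb was 20.68, so that both peaks were above the median of wide peaks too.

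**Figure D1:**
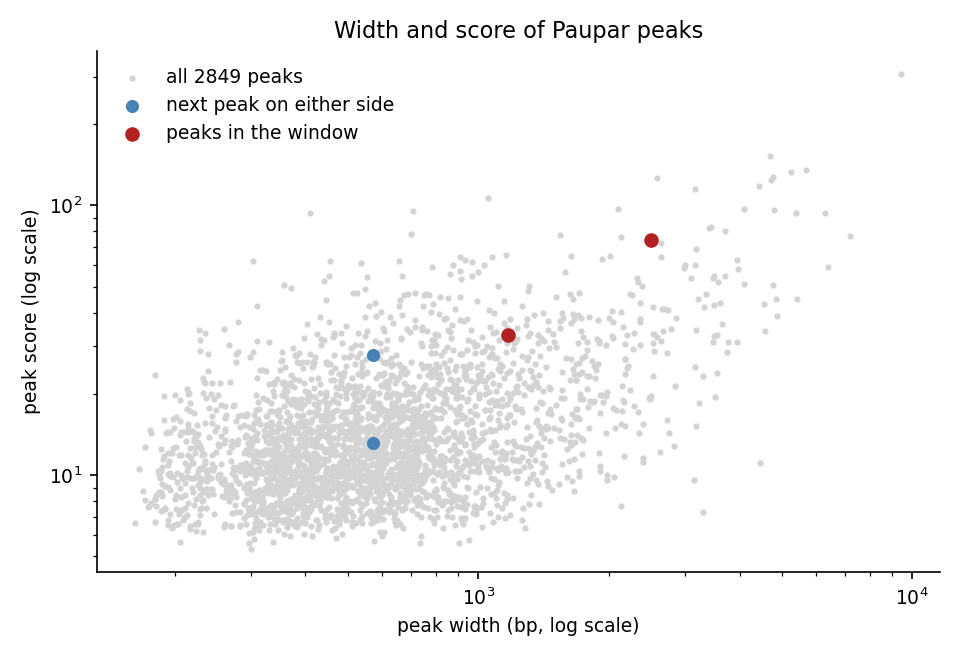
Width in bp and score of all 2849 peaks (grey), the 2 peaks of the HoxA and *Skap2* window (red) and the next peak on either side (blue), on log axes. The red points lie at 1174 bp with a score of 33.03 and at 2507 bp with a score of 74.66, to the upper right of most peaks, while both blue points lie at 572 bp.

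The peaks were separated by 360 bp, and together with this gap they spanned 4041 bp. Of all peaks, 7.09% (202 of 2849) had another peak within 1 kb, and only 70 of the 2828 spaces between neighbouring peaks were as short as 360 bp. On either side the sequence was free of peaks for 544 and 609 kb, compared with a median of 325 kb between neighbouring peaks, and 36.5% and 33.3% of all spaces were as long. The next peak to the left, at chr6:51474786-51475357, lay just outside the window and within *Snx10*, 1172 bp from its start, with a width of 572 bp and a score of 27.86. The next peak to the right, at chr6:52631803-52632374, was also 572 bp wide, with a score of 13.12, and lay 31634 bp from the start of *Tax1bp1*.

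The number of peaks did not set the region apart. When windows of 1.1 Mb were laid end to end over the genome, 29.2% (676 of 2319) held at least 2 peaks, with a mean of 1.21 and a maximum of 12. The HoxA and *Skap2* window has a GC content of 43.7%, and 401 windows within 1 percentage point of this held 1.87 peaks on average. Of these 401 windows, 26.4% held 0 peaks. The 2 peaks covered 0.335% of the window, in which 33 annotated genes of any type start, 16 of them protein coding.

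**Figure D2:**
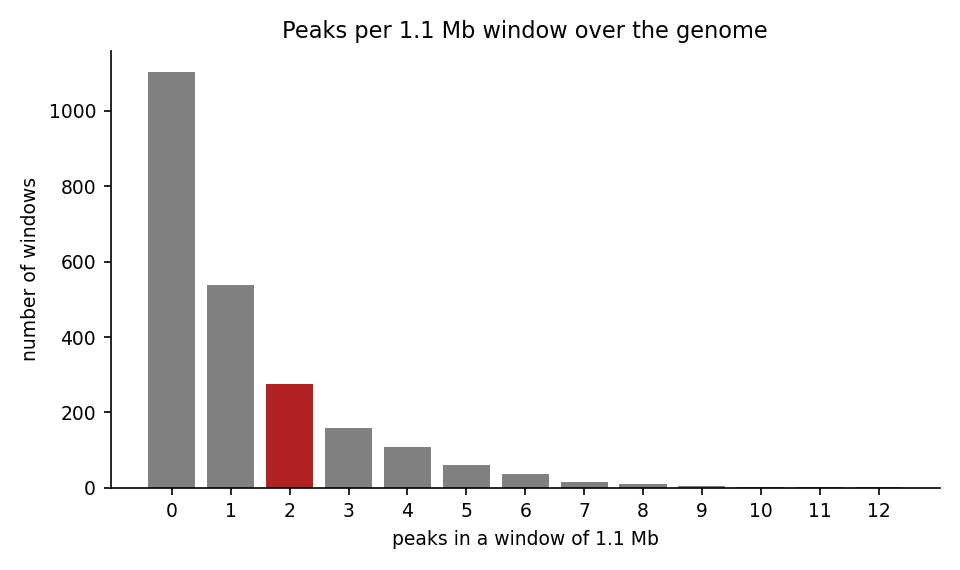
Number of 1.1 Mb windows of the genome (2319 in all) by the number of peaks in each, with the bar for 2 peaks, the number in the HoxA and *Skap2* window, in red. Of the windows 1104 held 0 peaks, 539 held 1 and 276 held 2.

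**Figure D3:**
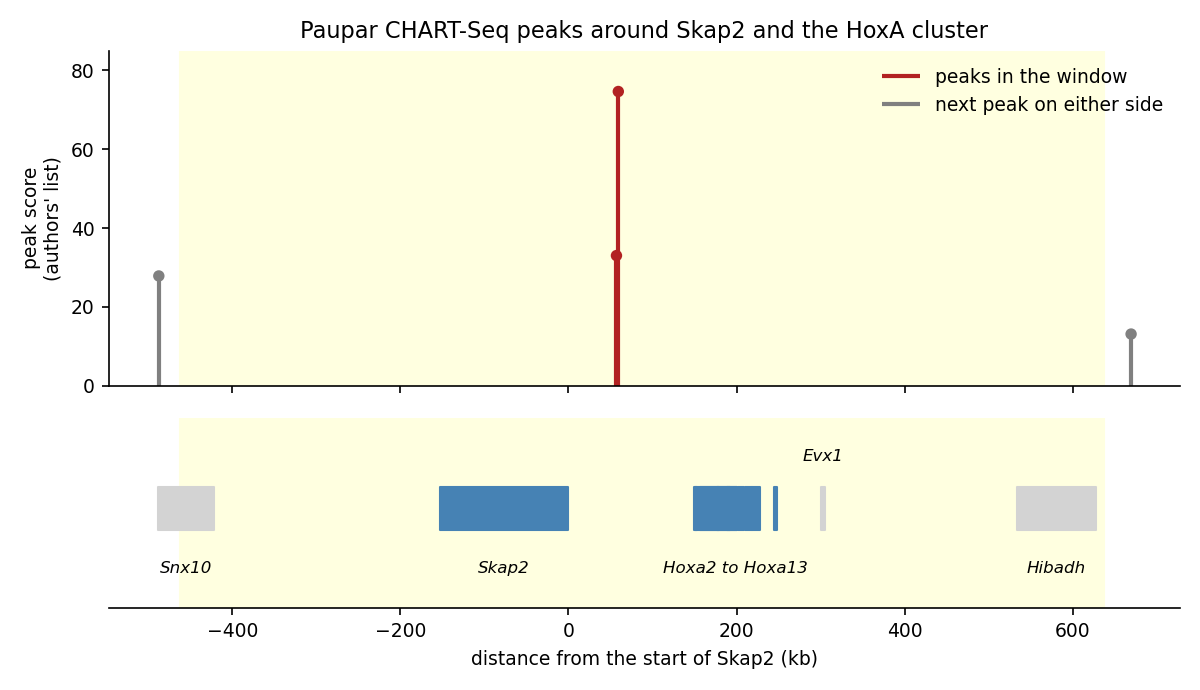
Scores of the peaks (upper panel) and positions of genes (lower panel) against the distance in kb from the start of *Skap2*, with the window of 51.5 to 52.6 Mb shaded. Of the HoxA cluster only the 8 genes described here are drawn (blue), and grey boxes are *Snx10*, *Evx1* and *Hibadh*. Both peaks of the window (red) stand between *Skap2* and *Hoxa2*, with none over the cluster.

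*Skap2* (ENSMUSG00000059182, chr6:51809165-51962548, minus strand) was the protein-coding gene nearest to the peaks. The midpoint of the narrow peak lay 57.1 kb and that of the wide peak 59.3 kb upstream of its start at 51962548. Of all protein-coding genes, 16.4% had a nearer peak. The midpoint of neither peak lay in an annotated gene, and the non-coding transcript *Gm15055* starts on the other side, 29815 bp from the edge of the wide peak.

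The 8 HoxA genes described here are also on the minus strand, from *Hoxa2* at chr6:52112350-52115412 to *Hoxa13* at chr6:52207693-52210874, so that they are transcribed towards the peaks and the peaks lie downstream of them. *Hoxa2* (ENSMUSG00000014704), which is needed for the second pharyngeal arch, starts at 52115412, and the wide peak lay 93.5 kb from it. For *Hoxa3*, a gene of thymus and parathyroid development that the annotation lists as 2 entries with starts 3 bp apart, the distance was 141.5 kb. The longer entry, from 52113358 to 52163338, spans *Hoxa4* and *Hoxa5*, which start nearer to the peaks, at 119.9 kb for *Hoxa4* and 132.7 kb for *Hoxa5*, the latter a gene of lung and cervical development. Distances increased to 150.0 kb at *Hoxa7*, 159.2 kb at *Hoxa9*, a regulator of blood progenitors, and 169.0 kb at *Hoxa10*, which patterns the uterus and lumbar spine. *Hoxa13* was the farthest at 189.0 kb, and 40.0% of all genes had a nearer peak than it. The order of the distances is the order of the gene starts, since for all 8 genes the nearest peak was the same wide peak.

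**Figure D4:**
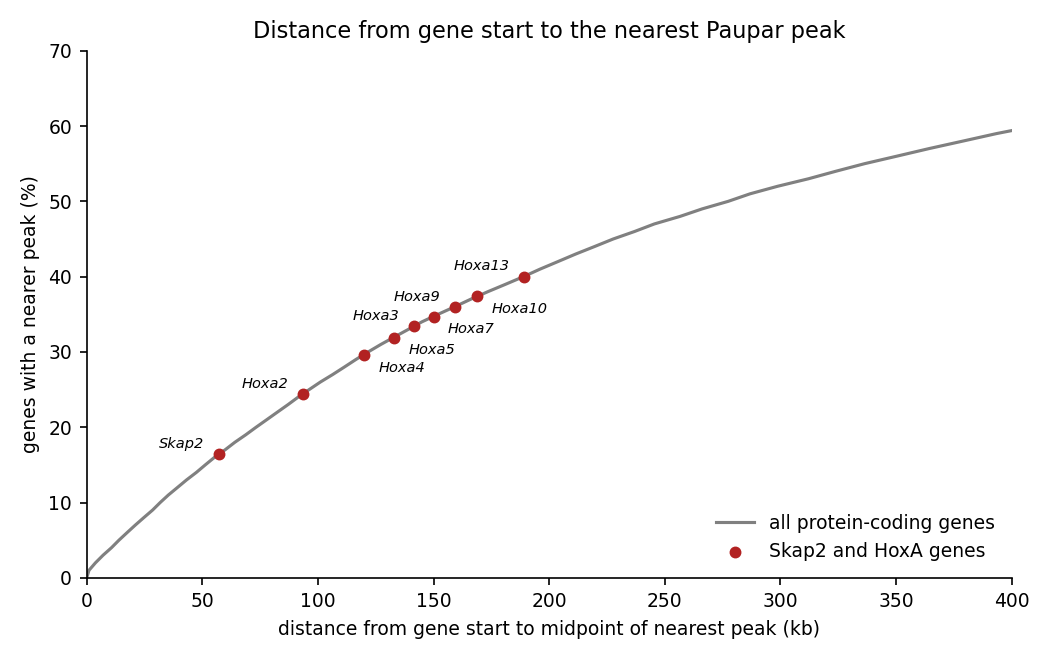
Distance in kb from the gene start to the midpoint of the nearest peak, against the percentage of protein-coding genes with a nearer peak. The grey line is all 22380 genes and red points are the 9 genes, which run from 57.1 kb at *Skap2* to 189.0 kb at *Hoxa13* and from 16.4% to 40.0% of genes.

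None of the 9 genes had a peak midpoint within 5 kb of its start, as 2.36% of all 22380 protein-coding genes did, and none had one within 50 kb, as 14.7% did. Within 100 kb, a distance chosen after these values were seen, 2 of the 9 (*Skap2* and *Hoxa2*) had a peak, compared with 25.8% of all genes. Regulatory domains were also used, which reach from 5 kb upstream to 1 kb downstream of a gene start and on to the next such domain, by at most 1 Mb. By this rule only *Skap2* of the 9 genes had a peak, compared with 16.4% of all genes. Its domain held 3 peaks, which were the 2 of the window and the peak within *Snx10*. The domain of *Hoxa2*, from 52113316 to 52122497, was closed by its neighbours and held none, and those of the other HoxA genes described here held none either. Both peaks of the window lay in the domains of 2 protein-coding genes, of which *Skap2* was one. The counts within 100 kb and in the domain are close to the shares of all genes, and the count within 50 kb is below it, but the 9 genes share the same peaks and are not independent of each other.

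The other Hox clusters were read in the same way. None of the 4 clusters held a peak between its first and its last gene. The clusters are 96.8 to 173.9 kb long, and even of the windows of 1.1 Mb 47.6% held 0 peaks. Of the 401 windows near the GC content of the HoxA and *Skap2* window, 26.4% held 0. Windows were not matched to the GC content of the other clusters. None of the 39 genes of the clusters had a peak within 50 kb of its start, as 14.7% of all protein-coding genes did. Genes of a cluster lie close together and are not independent of each other. Within 100 kb of a cluster there were 2 peaks for HoxA, those described here, and 0 for HoxB, HoxC and HoxD. The peak nearest to HoxC lay 104451 bp outside it with a score of 9.08, that of HoxB 390440 bp outside with a score of 7.1, and that of HoxD 892752 bp outside with a score of 30.82. Within 500 kb there were 3 peaks for HoxA, 4 each for HoxB and HoxC and 0 for HoxD. The counts within 100 and 500 kb were not set beside other regions of the same length. The genes with a peak in their regulatory domain were 1 in HoxA, 2 in HoxC and 0 in HoxB and HoxD. These are 3 of the 39 genes, compared with 16.4% of all protein-coding genes. The numbers are too small for a comparison, and the difference between clusters was not tested.

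The gap between the peaks consisted of tandem repeat over its whole length, and the sequence is shown because the borders of the peaks fall in it. The array ran from 52019937 to 52020809, 873 bp with a period of 28 bp or 31.2 copies, and a copy differed from the commonest base of each position at a median of 1 position and at most 4. It made up 28.1% of the narrow peak at its right end and 7.3% of the wide peak at its left end. The unit made of the commonest bases, and 200 bp across the right border of the narrow peak at chr6:52020167-52020366 (plus strand, 100 bp on each side of the border), are given with GGGGTG, the reverse complement of CACCCC, in capitals:
Repeat unit: GGGGTGaagtcacagaacagtgagagca
Border of the narrow peak: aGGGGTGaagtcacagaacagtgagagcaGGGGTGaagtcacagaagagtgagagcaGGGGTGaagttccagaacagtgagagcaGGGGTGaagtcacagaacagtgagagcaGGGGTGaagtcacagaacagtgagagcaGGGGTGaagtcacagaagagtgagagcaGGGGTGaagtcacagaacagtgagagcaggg

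The authors kept reads of 50 nt with a single best position and up to 2 mismatches. In the gap, 4.18% of 50-mers occurred once in the genome, and 0% when copies with up to 2 mismatches in the surrounding sequence also counted. The same shares were 71.8% and 65.0% in the narrow peak and 97.5% and 94.7% in the wide peak. Reads were paired, but these shares are for single reads, and whether a pair with 1 end in the array could be placed was not examined. Copies with mismatches elsewhere in the genome were not counted. Whether the 2 peaks are parts of 1 bound region was not tested.

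**Figure D5:**
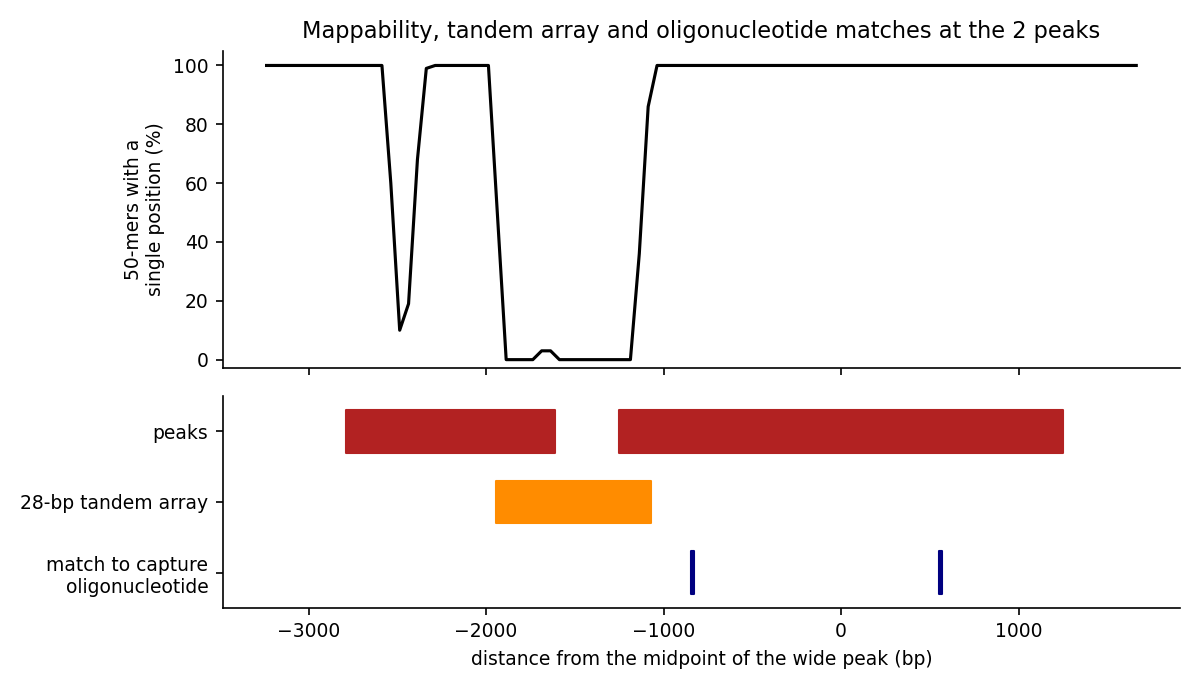
Percentage of 50-mers with a single position in bins of 100 bp (upper panel) and positions of the peaks, the 28-bp array and the matches to a capture oligonucleotide (lower panel), against the distance in bp from the midpoint of the wide peak. The percentage is 0% to 3.0% over most of the array, which bridges the gap of 360 bp and overlaps both peaks, is higher at the ends of the array, and also drops within the narrow peak outside the array, while both matches lie in the wide peak outside the array.

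Tandem arrays were then counted in all peaks and in the sequence beside them. At least 100 bp of array with a period of 10 to 100 bp were present in 13.9% of all peaks (396 of 2849) and in 6.05% of the flanking regions of the same width. Both peaks near *Skap2* were among the former, with 330 bp in the narrow peak, a length that 187 peaks of the list reached, and 183 bp in the wide peak. These limits were chosen after the array had been seen, and the difference was not tested.

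The wide peak also matched a capture oligonucleotide. Of the 4 *Paupar* oligonucleotides, PauparCHART254 matched it exactly at 2 sites, on opposite strands and 1385 bp apart. The first site was 12 nt long, at chr6:52021036-52021047 and 838 bp from the midpoint, and the other was 11 nt long, at chr6:52022433-52022443 and 558 bp from the midpoint on the other side. Both sites are shown in their surroundings on the plus strand of mm9 (chr6:52020942-52021141 and chr6:52022339-52022537), with the match in capitals, below the oligonucleotide itself, where the capitals mark the 12 nt of the longer match:
PauparCHART254: gGCTTAAGTCCACccctggattcg
Longer match: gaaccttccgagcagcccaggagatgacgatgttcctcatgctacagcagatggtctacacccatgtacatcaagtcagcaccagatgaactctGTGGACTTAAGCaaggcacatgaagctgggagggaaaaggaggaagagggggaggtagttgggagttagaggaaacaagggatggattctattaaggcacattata
Shorter match: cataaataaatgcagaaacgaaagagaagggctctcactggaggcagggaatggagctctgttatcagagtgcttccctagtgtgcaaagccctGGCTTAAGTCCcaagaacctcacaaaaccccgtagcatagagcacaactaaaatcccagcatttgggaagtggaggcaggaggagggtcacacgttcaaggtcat

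A match of at least 10 nt to any *Paupar* oligonucleotide was present in 24.6% of all peaks and in 33.0% of the 506 peaks over 1 kb, and one of at least 12 nt in 1.76% of all peaks. The share with at least 12 nt was not counted for peaks over 1 kb, and a wider peak offers more positions to match. At least 2 sites for the same oligonucleotide were present in 1.93% of all peaks and in 5.34% of those over 1 kb. The 12-mer GCTTAAGTCCAC was taken from the longer match of the wide peak itself, and no other peak of the list held it. This 12-mer occurs 141 times on the assembled chromosomes, so that most of its copies lie outside peaks. Within the window of 1.1 Mb, 155 sites of at least 10 nt were counted, of which 2 lay in a peak, and of the 10 sites of at least 12 nt 1 did. The narrow peak had no site of 10 nt: its longest match was CCTGGAACT, 9 nt of PauparCHART428. The median longest match to a *Paupar* oligonucleotide was also 9 nt, both over all peaks and over peaks over 1 kb. The *LacZ* oligonucleotide matched at most 6 nt in the narrow peak and 7 nt in the wide peak, with a median of 6 nt over all peaks. The *Paupar* lengths are the longest over several oligonucleotides and the *LacZ* lengths come from a single one. They are therefore not directly comparable. Whether the matched sites bear on the recovery of the DNA was not tested.

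Both peaks also share a stretch with the *Paupar* transcript itself, which lies on chromosome 2. The transcript was read here as the genomic sequence between the primers that the authors used to clone it in full. The authors aligned *Paupar* locally to its bound sites and found no evidence of complementarity. The longest exact match was 15 nt in the narrow peak and 18 nt in the wide peak, compared with a median of 11 nt over all peaks and 12 nt over peaks over 1 kb. Matches as long were present in 10.2% and 6.0% of all peaks, and in 25.5% and 15.6% of those over 1 kb. In both peaks the match ended at the same base of the transcript, nt 2900 of 3517, and it was on the same strand. The sequences around it (chr6:52019420-52019494 and chr6:52021900-52021977, plus strand, match in capitals) resemble each other beyond the match and read as part of a B1 element, a short interspersed repeat with very many copies in the mouse genome:
Narrow peak: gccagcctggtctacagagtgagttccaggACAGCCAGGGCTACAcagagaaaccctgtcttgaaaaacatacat
Wide peak: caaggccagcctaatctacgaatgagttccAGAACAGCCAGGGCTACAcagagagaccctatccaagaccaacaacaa

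Short motifs were read on both strands of the whole peaks and set beside the share of the 506 peaks over 1 kb that hold them. The homeodomain core TAATTA was in neither peak (26.7% of the peaks over 1 kb held it), nor was TGATTNAT, a site of HOX with PBX (18.0%). Direct repeats of the retinoic acid receptor half-site were also in neither, with a spacing of 2 bases (5.34%) or of 5 (2.37%). The PAX6 paired-domain consensus with at most 2 mismatches was found at 1 position in the narrow peak and at 0 in the wide peak (54.7%). The 6-mers ATCATC and CACCCC were known from an earlier analysis of these data, so their presence in the peaks is not an independent result. ATCATC was found at 2 positions, both in the wide peak (54.5%). CACCCC was found at 11 positions in the narrow peak, 13 in the gap and 6 in the wide peak (73.9%). Per kb this is 9.37 in the narrow peak and 2.39 in the wide peak, against 1.8 over all peaks, and 1.72% of peaks had as many per kb as the narrow peak and 27.7% as many as the wide peak. CACCCC lies at 1 position of the repeat unit shown above. The array covers 330 bp of the narrow peak, all 360 bp of the gap and 183 bp of the wide peak. The densities therefore include the copies of the array, and the motif outside the array was not counted. CACCCC is also part of PauparCHART254, of which the narrow peak matched the 8 nt CACCCCTG within the array. This is shorter than the median longest match to a *Paupar* oligonucleotide over all peaks, which was 9 nt.

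The base composition was on the AT-rich side of the list. GC content was 43.1% in the narrow peak and 42.2% in the wide peak, against a median of 48.1% over all peaks. The whole HoxA and *Skap2* window had a GC content of 43.7%, close to that of both peaks. The narrow peak held 4 CpG and the wide peak 17, which is 0.0747 and 0.153 of the number expected from the base counts, with a median of 0.179 over all peaks. Of all peaks, 15.8% were at or below the narrow peak in this ratio and 41.1% at or below the wide peak.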

How the data were processed

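Paired-end CHART-Seq reads of N2A cells were mapped by the authors to mm9 with bowtie, keeping reads with 1 best position, and each pull-down of *Paupar* was compared with its own *LacZ* control and with input in MACS2. The authors deposited the peaks found in both comparisons as 1 list with a score per peak. The methods mention a MACS2 peak score and a filter at a -log10 q of 5, and the lowest score of the list is 5.34, but the list does not name its column, so the score is used here only to rank peaks. How pull-downs were joined is not given in the sources used here. No file gives values per library. Groups were taken from the sample titles.

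Positions were read against the NCBIM37 genome, the assembly that mm9 denotes, and the annotation of 22380 protein-coding genes on it. Starts were converted to count from 1. Distances run from gene start to peak midpoint. Exact matches were read on both strands. Array bases were those in 50-bp windows repeated with 90% identity at a period of 10 to 100 bp. The steps were tested on simulated data. The genes, motifs and settings were chosen with earlier results of these data known. The named genes are the 9 listed, and others only where a peak lies in them, their start is near a peak, or they end the run. A cloned site and genes of the cluster beyond the 8 are not reported here. No test was run. Python 3.11.15, numpy 2.4.6, pandas 2.3.3, pysam 0.24.0 and matplotlib 3.10.9 were used.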

Additional observations from a re-analysis of the deposited data

How the results depend on the processing

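Of 20 alternative settings, 16 gave the values reported above. With the window widened by 250 kb on each side it held 4 peaks, the added ones being those beside it, and with peaks within 10 kb merged it held 1. A match to a capture oligonucleotide was present in 2 peaks with at least 9 nt and in 0 when only the central 200 bp were read, since both sites of the wide peak lie farther out. The counts of genes with a peak within 5, 50 and 100 kb or in the regulatory domain were the same with a score of at least 10, with the starts of any transcript and, for the distances, with the nearest edge of a peak. Domains extended by at most 100 kb gave the same count. The distance of 100 kb and its alternatives were added after the data were seen. The median score could not be given for peaks of at most 1 kb, as the window has none. No paired analysis was possible because the list holds no value per library, and for the same reason no replicate could be left out. Depth is unknown, so a region without a peak cannot be told apart from 1 that the reads did not cover.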
